A study of Glycine max with 2 samples.

Results

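Glyma.15G187700 and Glyma.U019400 were the only 2 genes of the Gene Ontology (GO) term transmembrane receptor protein serine/threonine kinase activity among the differentially methylated genes (DMGs) between the soybean cytoplasmic male sterile (CMS) line NJCMS5A and its maintainer NJCMS5B. They were chosen by their differentially methylated regions (DMRs), so the level differences of their 3 DMRs describe what selected them and were not tested. The term held 18 background genes, and the 2 genes stood among 485 DMGs and 3527 DMRs in all. NJCMS5A is male sterile through its cytoplasm and was bred by repeated backcrossing to NJCMS5B, the fertile recurrent parent. Flower buds of different sizes were pooled from plants of either line at the full-bloom stage, and 1 library per line was read by whole-genome bisulfite sequencing. Pooling mixed tissues and stages of pollen development, and no marker of a tissue can be read from genomic DNA.

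Receptor serine/threonine kinases sit in the cell membrane, bind a signal outside the cell and transfer phosphate to serine or threonine residues of proteins inside it. Most membrane receptors of plants with a kinase domain belong to the receptor-like kinases, which perceive hormones, peptides and pathogen molecules. In Arabidopsis, receptor-like kinases such as EMS1 (also EXS) and its partners SERK1 and SERK2 are needed for the tapetum, the anther layer that feeds developing pollen. In plants, methylation of cytosines in a promoter or at the start of a gene often goes with low transcription, whereas methylation along gene bodies is also found in expressed genes. Expression was not measured in the data analysed here. The study also drew on RNA sequencing data, which were not used here.

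The 2 genes shared 50 GO terms, among them protein kinase activity, ATP binding, signaling receptor activity and membrane. Glyma.15G187700 had 74 terms in all. The 24 terms held by this gene and not by Glyma.U019400 included DNA-directed DNA polymerase activity, a term of 4 DMGs and 141 background genes, as well as DNA binding, exonuclease activity and DNA replication. These are functions of enzymes that copy DNA, so the annotation of Glyma.15G187700 was not that of a receptor kinase alone. Glyma.U019400 had 52 terms, and only metal ion binding and cation binding were absent from Glyma.15G187700. Neither gene was found in the reference table of soybean gene names (0 of 2 matched), so they carry no other name here.

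Bisulfite turns cytosines into uracil unless they are methylated. The methylation level of a DMR is here the percentage of calls at its cytosines that were methylated, over all sequence contexts together. It is given with a 95% Wilson confidence interval, which covers counting error only. The interval treats calls as independent, which calls of the same read are not, so it can be too narrow. With 1 library per line, no value has a replicate check, and line and library cannot be told apart.

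Glyma.U019400 had adjoining DMRs of opposite direction, one over the start of the gene and one annotated to its promoter alone. The first DMR overlapped exon, intron, 5′UTR and promoter and lay on scaffold_21 from 3223162 to 3225861, in the coordinates of the deposited data. In this region, 18 of 5799 calls were methylated in NJCMS5A, a level of 0.310% (0.196 to 0.490), against 1105 of 6585 calls in NJCMS5B, a level of 16.8% (15.9 to 17.7). The level was 16.5 percentage points lower in the sterile line. Calls at unconverted cytosines count as methylated and were not subtracted, so a level this low cannot be told apart from incomplete conversion and no exact fold is given for this DMR. The second DMR, from 3225873 to 3228652, was annotated to the promoter alone. Here 1448 of 8069 calls were methylated in NJCMS5A (17.9%, 17.1 to 18.8), against 351 of 7279 calls in NJCMS5B (4.82%, 4.35 to 5.34). The second DMR was thus hyper-methylated in NJCMS5A by 13.1 percentage points, or 3.72 times. In neither region did the intervals of the libraries overlap. This adds no support, as DMRs were selected by the difference between these libraries.

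Glyma.15G187700 had 1 DMR over exon, intron and 5′UTR, from 19586457 to 19587949 on Chr15, and none over its promoter. Its level was 16.7% (16.4 to 17.1) in NJCMS5A, from 8219 of 49139 calls, against 6.67% (6.54 to 6.82) in NJCMS5B, from 8050 of 120608 calls. This DMR was therefore hyper-methylated in NJCMS5A by 10.1 percentage points, or 2.51 times. The value covers the cytosines of the DMR only, not the whole gene. No further gene was annotated to any of the 3 DMRs.

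**Figure D1:**
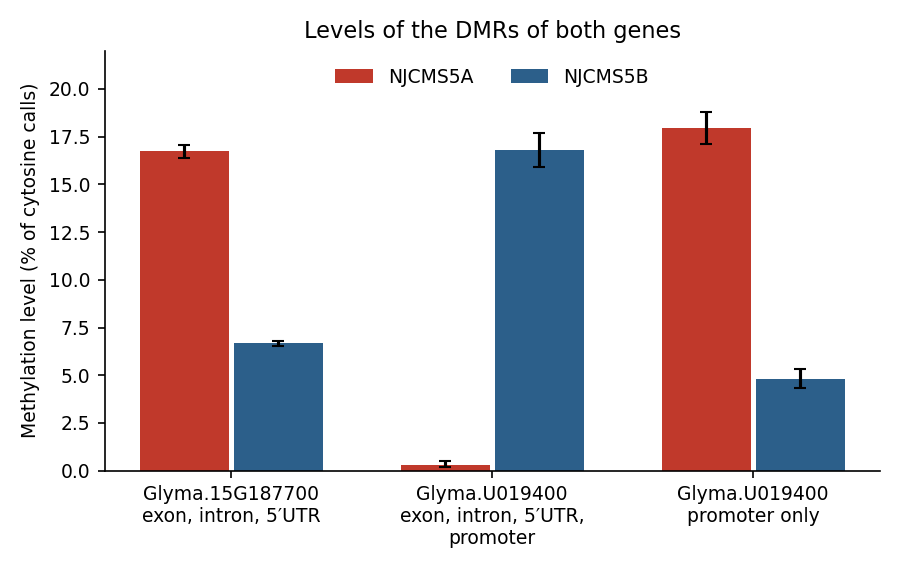
Methylation level of the 3 DMRs of Glyma.15G187700 and Glyma.U019400 in percent of cytosine calls, with bars for NJCMS5A (red) and NJCMS5B (blue) and 95% Wilson intervals as error bars. The level of Glyma.U019400 was 0.310% in NJCMS5A against 16.8% in NJCMS5B in the DMR over exon, intron, 5′UTR and promoter, and 17.9% against 4.82% in the DMR of the promoter alone.

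Set among all DMRs, the first DMR of Glyma.U019400 was 1 of 203 of 3527 with a level under 1% in NJCMS5A. Its difference was close to the median absolute difference of all DMRs, 16.7 percentage points. That of Glyma.15G187700 was among the smallest, since only 36 DMRs differed by less. The smallest difference in the table was 10.0001 percentage points and the smallest fold 2, so all DMRs lay past such limits by construction. When a fold of at least 3 was counted, 1 of the 3 DMRs was hypo-methylated and 1 hyper-methylated in NJCMS5A, where 21.3% and 16.5% of all DMRs were past this fold in these directions. As the DMRs selected the genes, nothing follows from this count.

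The DMRs of Glyma.U019400 were separated by only 11 bp. They spanned 2700 and 2780 bp with 537 and 606 cytosines, more than the median of 215 cytosines of all DMRs. The first DMR overlapped the 5′UTR as well as the promoter, so that the start of the gene lies inside it if the gene has a single start. The promoter, the 2 kb upstream of the start, reached into the second DMR, which puts the start between 3223873 and 3225861 and the gene on the side of the lower coordinates. On this reading the promoter ended at 3227861 at the latest, and at least 791 bp of the hyper-methylated DMR (28.5%) lay beyond it. The change from hypo-methylation to hyper-methylation was therefore met on the way from the gene start into the upstream region.

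Pooled over both DMRs of Glyma.U019400, the libraries had nearly the same level. In total 1466 of 13868 calls were methylated in NJCMS5A (10.6%, 10.1 to 11.1), against 1456 of 13864 calls in NJCMS5B (10.5%, 10.003 to 11.02). The difference of the pooled levels was 0.069 percentage points and its sign depended on the weighting, as the unweighted mean of the 2 DMR levels was lower in NJCMS5A by 1.67 percentage points. These values cover the cytosines of the 2 DMRs only, not the whole gene or the whole promoter.

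The depth behind both DMRs was ordinary. Each cytosine of the first DMR was called 10.8 times in NJCMS5A and 12.3 times in NJCMS5B, and each cytosine of the second 13.3 times in NJCMS5A and 12.0 times in NJCMS5B. The medians over all DMRs were 11.3 in NJCMS5A and 10.7 in NJCMS5B. Unmethylated calls per cytosine were 10.8 in NJCMS5A against 10.2 in NJCMS5B in the first DMR, while methylated calls were 0.0335 against 2.06. In the second DMR the methylated calls per cytosine were 2.39 against 0.579, and the unmethylated calls 10.9 against 11.4. In both DMRs the libraries therefore differed in methylated calls, at similar numbers of unmethylated calls.

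DMRs of both directions also surrounded Glyma.U019400. Within 50 kb to either side lay 18 other DMRs, 10 hypo-methylated and 8 hyper-methylated in NJCMS5A. Of these, 5 had a level under 1% in NJCMS5A and 5 in NJCMS5B. Of all 750 DMRs of scaffold_21, 413 were hypo-methylated (55.1%) and 337 hyper-methylated (44.9%). The mix of directions around the gene was thus close to that of the scaffold. A level under 1% was found in 35 of the 750 DMRs in NJCMS5A and in 30 in NJCMS5B. The nearest DMR on the side of the lower coordinates, 10010 bp away over promoter, exon and intron of Glyma.U019300, had a level of 0.189% in NJCMS5A against 10.2% in NJCMS5B. It was preceded by a promoter DMR of the same gene with 21.4% in NJCMS5A against 8.07% in NJCMS5B. Glyma.U019300 thus also had a hypo-methylated DMR over exon, intron and promoter beside a hyper-methylated DMR of the promoter alone. On the other side, a DMR without a gene 3514 bp away had 0.411% in NJCMS5A against 13.7% in NJCMS5B. The nearest DMR annotated to a gene on that side was that of Glyma.U019500, over its promoter, with 10.7% in NJCMS5A against 0.631% in NJCMS5B.

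**Figure D2:**
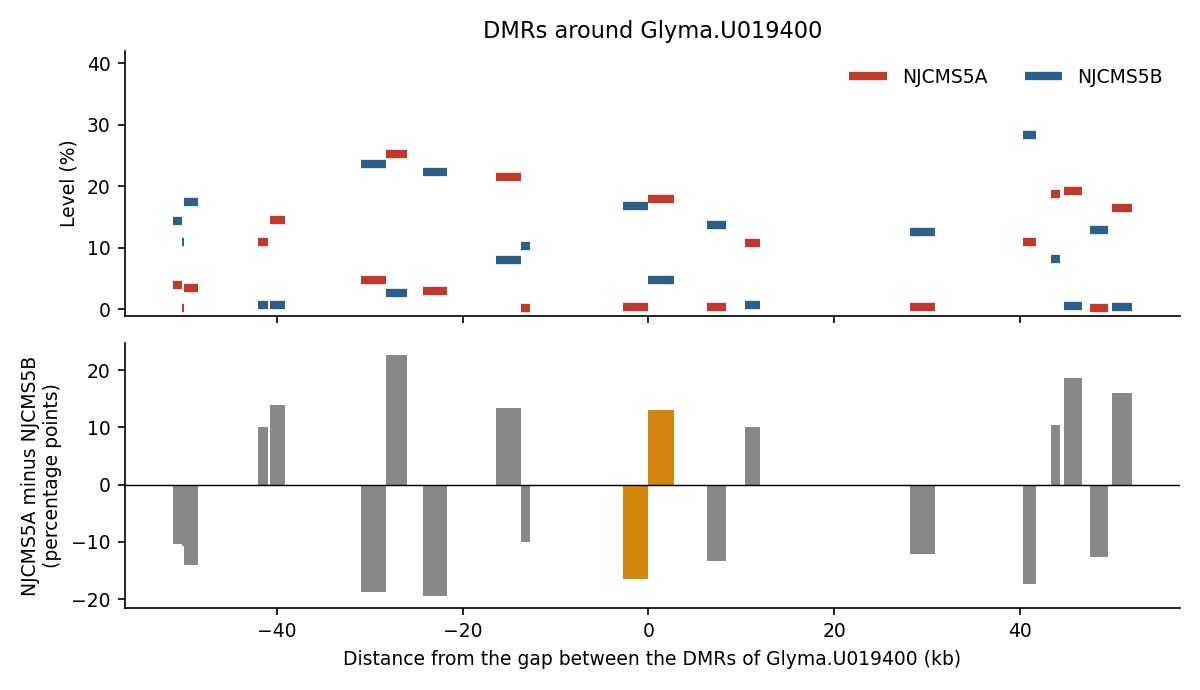
DMRs within 50 kb of Glyma.U019400 on scaffold_21, by distance in kb from the gap between its 2 DMRs. The upper panel gives the level in NJCMS5A (red) and NJCMS5B (blue), and the lower panel the difference in percentage points, with the DMRs of Glyma.U019400 in orange; 10 of the 18 other DMRs lie below 0 and 8 above.

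Such a change of direction was common between close DMRs. Over all sequences, 321 of 398 pairs of consecutive DMRs with at most 50 bp between them had opposite directions (80.7%), against 1379 of 2595 pairs farther apart (53.1%). On scaffold_21 alone the numbers were 122 of 142 (85.9%) and 414 of 607 (68.2%). The limit of 50 bp was set after the values were seen. How the caller joined neighbouring windows of one direction is not given in the sources used here, and its part in these shares was not tested.

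The DMR of Glyma.15G187700 differed from those of Glyma.U019400 in its depth. NJCMS5A had a mean depth of 85.5 here, against 210 in NJCMS5B, which was 2.45 times as deep. Only 14 of the 3527 DMRs were deeper in NJCMS5A and 3 in NJCMS5B. This 1 DMR held 0.393% of the calls of all DMRs in NJCMS5A and 0.955% in NJCMS5B. The 7 other DMRs of Chr15 had a depth between 7.46 and 38.8 in NJCMS5A and between 5 and 14.7 in NJCMS5B, and 0 of them lay within 100 kb. The nearest was 2.26 Mb away, and the nearest with an annotated gene 25.4 Mb away, at Glyma.15G238700 and Glyma.15G238800. DMRs were sparse on the chromosomes, which held 311 of the 3527, so such distances are not particular to this gene. Of the 8 DMRs of Chr15, 6 were hypo-methylated in NJCMS5A, and that of Glyma.15G187700 was 1 of the 2 that were not.

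**Figure D3:**
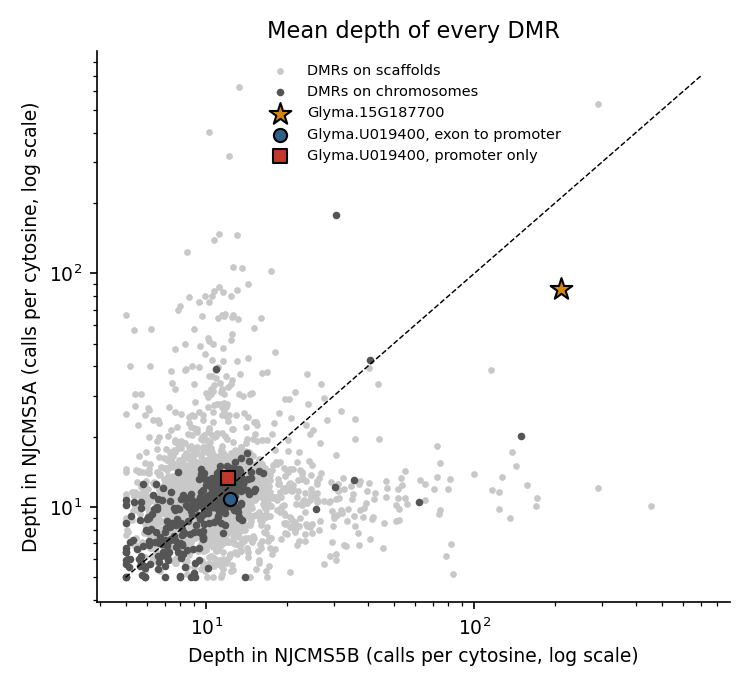
Mean depth of each of the 3527 DMRs in NJCMS5A (vertical axis) and NJCMS5B (horizontal axis), in calls per cytosine on log axes, with equal depth as a dashed line. Glyma.15G187700 (star) had 85.5 in NJCMS5A and 210 in NJCMS5B, whereas both DMRs of Glyma.U019400 lie in the cloud between 10.8 and 13.3.

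The number of methylated calls in Glyma.15G187700 was almost the same in the libraries. It was 14.3 per cytosine in NJCMS5A and 14.0 in NJCMS5B, a ratio of 1.02. The unmethylated calls numbered 71.2 per cytosine in NJCMS5A against 196 in NJCMS5B, 2.75 times as many in the maintainer. The higher level in NJCMS5A thus came with fewer unmethylated calls and not with more methylated calls. Where the additional unmethylated calls in NJCMS5B come from was not tested.

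Only 3 other DMRs on the chromosomes had a depth over 50 in a library, and all 4 shared this feature. The methylated calls per cytosine were 3.51 in NJCMS5A against 3.94 in NJCMS5B in a DMR of Glyma.17G185800 on Chr17, and 2.80 against 2.97 in a DMR of Glyma.19G038200 on Chr19. In a DMR of Chr17 without a gene they were 3.57 against 3.46. Their unmethylated calls differed widely. They numbered 175 per cytosine in NJCMS5A against 26.5 in NJCMS5B in Glyma.17G185800, and 7.67 against 59.3 in Glyma.19G038200. In the region without a gene NJCMS5A had 16.5 and NJCMS5B 145. Methylated calls per cytosine within 1.2 times of each other were found in all 4, against 6 of the other 307 DMRs on the chromosomes (1.95%). On the scaffolds, 2 of the 81 DMRs with a depth over 50 had them. These regions and the limit of 1.2 were chosen after their values were seen.

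**Figure D4:**
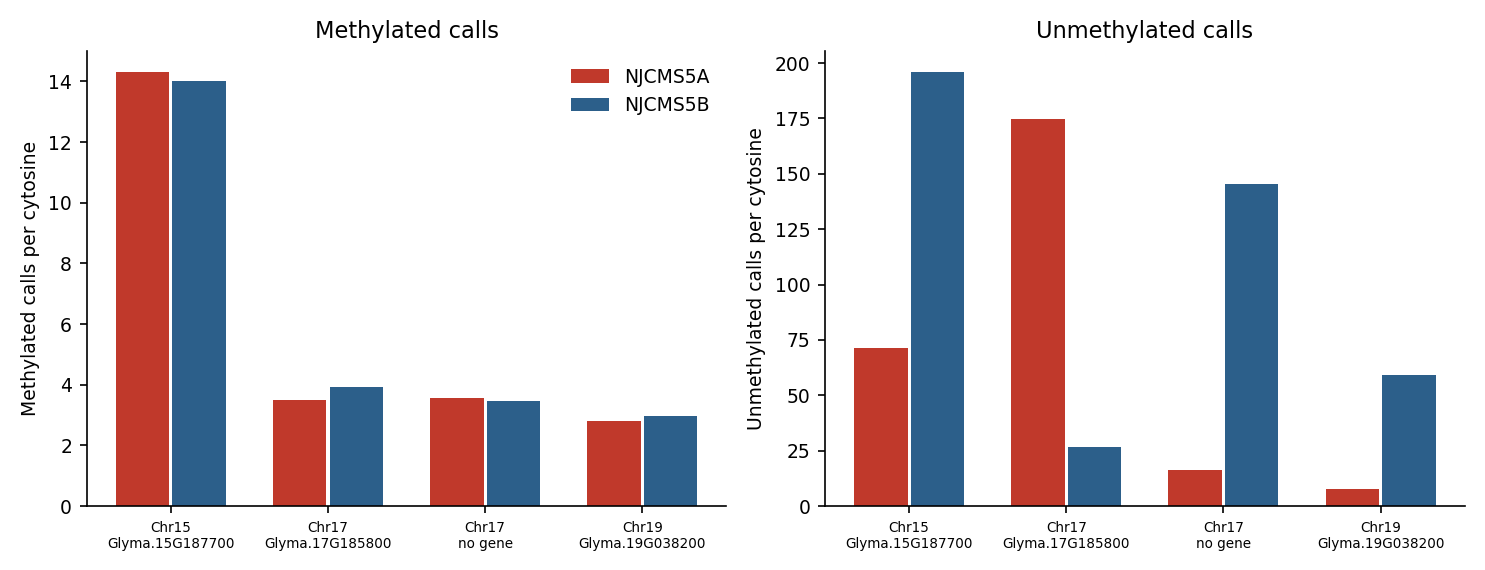
Methylated (left) and unmethylated (right) calls per cytosine of the 4 chromosome DMRs with a depth over 50, with bars for NJCMS5A (red) and NJCMS5B (blue). Methylated calls of Glyma.15G187700 were 14.3 in NJCMS5A against 14.0 in NJCMS5B, and unmethylated calls 71.2 against 196.

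Other genes had DMRs of the same directions over exon and promoter as Glyma.U019400. A DMR over an exon hypo-methylated in NJCMS5A together with a hyper-methylated DMR of the promoter alone was found in 46 other DMGs, 23 of them with DMRs on scaffold_21. With Glyma.U019400 these were 47 of the 116 DMGs of both directions, among 485 DMGs in all. No limit was set on the distance between the 2 DMRs, which was 11 bp in Glyma.U019400 and reached 18804 bp in Glyma.U016500. Ordered by the summed gap to the 2 level differences of Glyma.U019400, the closest was Glyma.U006100, at 0.358 percentage points. Its exon DMR had 2.09% in NJCMS5A against 18.8% in NJCMS5B and its promoter DMR 13.7% against 0.640%, with 3118 bp between them. Next came Glyma.U030100, with 4.42% against 21.1% in the exon and 22.9% against 7.96% in the promoter. Glyma.U022200 followed, with 7.25% against 24.6% in the exon and 28.1% against 13.9% in the promoter. Likeness rests on 2 libraries, and these genes were selected as DMGs themselves.

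Only 1 gene had an arrangement like that of Glyma.15G187700, a single hyper-methylated DMR over exon, intron and 5′UTR but not the promoter. This was Glyma.07G061400, whose level was 11.03% in NJCMS5A against 0.748% in NJCMS5B. Its depth was 9.42 in NJCMS5A and 9.99 in NJCMS5B, and its methylated calls per cytosine were 1.04 against 0.0747. It therefore resembled Glyma.15G187700 in position and direction, but not in depth or in equal numbers of methylated calls.

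Among the wider kinase terms, hypo-methylation in NJCMS5A was the more frequent direction, as in all DMGs. Protein kinase activity, the transfer of phosphate to proteins, was annotated to 32 DMGs of 2685 background genes. Of these, 17 had only hypo-methylated DMRs (53.1%), 5 only hyper-methylated DMRs (15.6%) and 10 DMRs of both directions (31.2%). In all 485 DMGs the shares were 57.9%, 18.1% and 23.9%. The median level difference over the 47 DMRs of the kinase DMGs was -10.9 percentage points, against -10.6 over the 600 DMRs annotated to any gene. Glyma.15G187700 was thus 1 of the 5 hyper-methylated kinase DMGs and Glyma.U019400 1 of the 10 with both directions. No kinase DMR other than that of Glyma.15G187700 was deep, since the 44 DMRs of the 30 other genes had a depth between 7.09 and 15.1 in NJCMS5A and between 5.18 and 18.6 in NJCMS5B.

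Extremes were sought among DMRs with at least 100 cytosines and, in NJCMS5A as well as NJCMS5B, a depth of 10 or more. The largest decrease of the kinase DMGs within these limits was in the promoter of Glyma.U021800, with 0.483% in NJCMS5A against 26.7% in NJCMS5B. The study annotates this gene as a mitogen-activated protein kinase, an enzyme of cytoplasmic signaling cascades. The largest increase was in Glyma.U022900, over exon, 5′UTR and promoter, with 21.3% in NJCMS5A against 4.65% in NJCMS5B. The terms protein phosphorylation, with 31 DMGs, and kinase activity, with 35, named the same extremes. Protein phosphorylation had 16, 5 and 10 DMGs with hypo-methylated, hyper-methylated and both kinds of DMR, and kinase activity 19, 5 and 11.

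The narrower terms held few genes beside the receptor kinases. Protein serine/threonine kinase activity, of 238 background genes, added only Glyma.U028200, whose promoter DMR had 14.97% in NJCMS5A against 4.34% in NJCMS5B. None of its 3 DMGs was hypo-methylated alone, against 57.9% of all DMGs. As the others of the 3 are Glyma.15G187700 and Glyma.U019400, nothing follows for the term. Transmembrane receptor protein kinase activity, of 25 background genes, held no DMG besides Glyma.15G187700 and Glyma.U019400. Transmembrane signaling receptor activity added Glyma.18G199200, which was annotated by its 5′UTR alone to a DMR on a scaffold, with 1.86% in NJCMS5A against 18.1% in NJCMS5B.

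Receptor activity held 6 DMGs, of which 2 were hypo-methylated, 1 hyper-methylated and 3 of both directions. Within the limits on cytosines and depth, its largest increase was in the promoter of Glyma.U010700, with 33.6% in NJCMS5A against 15.9% in NJCMS5B, and its largest decrease in the first DMR of Glyma.U019400. A larger decrease lay outside the limits, in a promoter DMR of Glyma.20G025000 with 11 cytosines, at 24.5% in NJCMS5A against 52.4% in NJCMS5B. This gene was also annotated with protein kinase activity and molecular transducer activity. Molecular transducer activity held 9 DMGs, 4 hypo-methylated, 1 hyper-methylated and 4 of both directions. Its largest decrease within the limits was in Glyma.U034500, over exon, intron and 3′UTR, with 1.23% in NJCMS5A against 21.4% in NJCMS5B. In both terms Glyma.15G187700 was the only gene with hyper-methylated DMRs alone. The counts of both terms include Glyma.15G187700 and Glyma.U019400. Over all DMGs, 57.9% were hypo-methylated, 18.1% hyper-methylated and 23.9% of both directions.

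**Figure D5:**
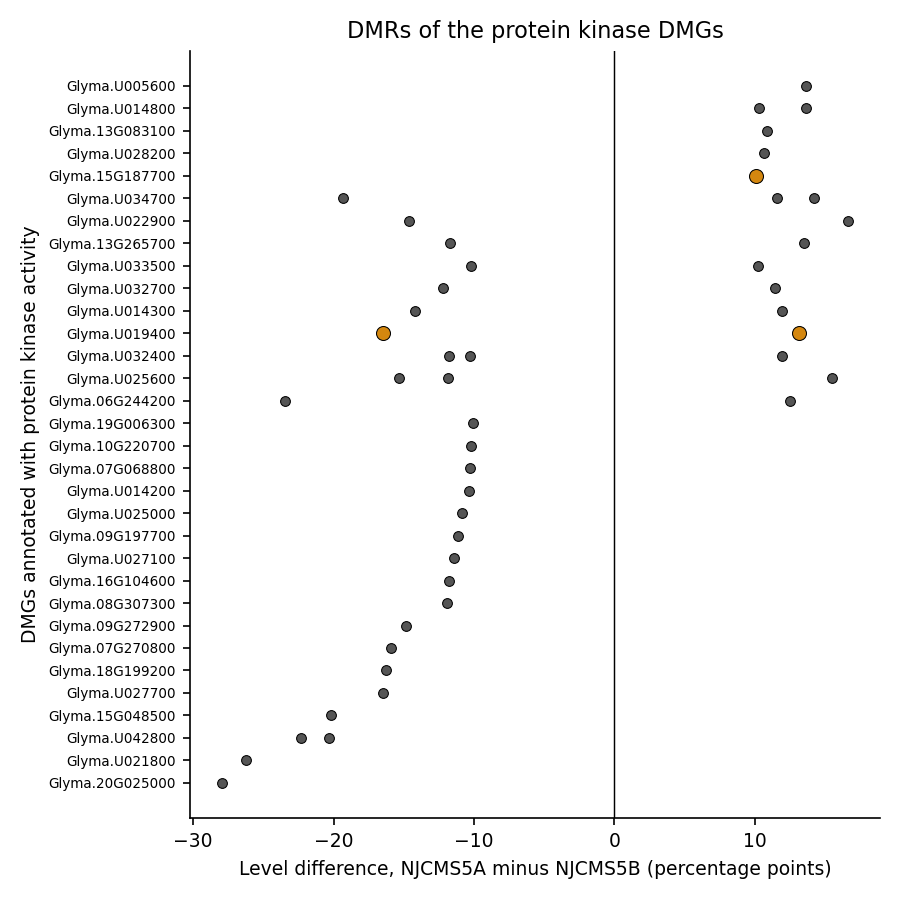
Level difference of each DMR of the 32 DMGs annotated with protein kinase activity, NJCMS5A minus NJCMS5B in percentage points, with 1 line per gene and the DMRs of Glyma.15G187700 and Glyma.U019400 in orange. Points fall on both sides of 0 in 10 genes, on the negative side alone in 17 and on the positive side alone in 5.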

How the data were processed

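Flower buds of NJCMS5A and NJCMS5B gave 1 library each. The authors aligned the reads with Bismark (version 0.12.5 in the submitters' processing notes) to the soybean genome (the gene IDs carry the annotation name Wm82.a2.v1), kept uniquely mapped reads and called DMRs with swDMR by a Fisher test. The methylation level was deposited as a fraction of cytosine calls and appears uncorrected for unconverted cytosines. The study's methods describe such a correction, but level times depth times cytosines was whole in every DMR. Levels under 1% and folds over them thus hold a share of incomplete conversion. The study reports a conversion rate for each library, lower in NJCMS5B than in NJCMS5A, so this share can differ between the libraries. The share within a single DMR was not estimated. The authors deposited coverage as mean depth per cytosine, a signal not normalized between libraries, with the number of cytosines. Promoter means the 2 kb upstream. The authors' ratios, differences and p-values of DMRs and of GO and KEGG terms were not used.

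Methylated and unmethylated calls were recovered as level times depth times cytosines; all products were whole within 0.01. Computations were tested on simulated data and run in Python 3.11.15 (matplotlib 3.10.9, pandas 2.3.3, scipy 1.17.1, numpy 2.4.6). Total calls in the 3527 DMRs were 12507108 in NJCMS5A and 12628430 in NJCMS5B. No test was run, since the genes were selected by their DMRs and each line had 1 library. A gene was hypo-methylated or hyper-methylated where all of its DMRs had that direction in NJCMS5A.

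Genes, terms and lists were chosen with earlier results of these data known. Named were both genes, genes of neighbouring DMRs, genes of the receptor terms, the 3 DMGs closest in arrangement, and per kinase term the DMGs with the largest increase and decrease, counting only DMRs of 100 or more cytosines whose depth was 10 or more in NJCMS5A and in NJCMS5B. Glyma.17G185800, Glyma.19G038200 and, for its size, Glyma.20G025000 were chosen after their values were seen. Alternatives changed the call weights, the minimum depth, difference and number of cytosines, the window, the fold and the use of UTR annotation. No sequence was printed, as none of the reference build was used here.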

Additional observations from a re-analysis of the deposited data

How the results depend on the processing

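The differences of the 3 DMRs moved by less than their counting error when each cytosine was counted once or when 0.5 calls were added to either state. Neither change could have moved them far, so stability was not tested by them. Counting each cytosine once kept the same level and only rounded it to whole cytosines. The 0.5 calls were few beside all calls of a DMR. All 3 DMRs lay inside the limits of a depth of at least 10 and at least 100 cytosines, which thus could not move their differences. With a difference of at least 20 percentage points, 0 DMRs of Glyma.15G187700 and 0 of either direction of Glyma.U019400 were left, as all 3 differ by less. The pooled difference of Glyma.U019400 changed sign with an unweighted mean of its DMRs, -1.67 against 0.069 percentage points. Of the DMGs with protein kinase activity, 10 instead of 17 were hypo-methylated at a depth of at least 10. At a difference of at least 20 percentage points 5 were, with 0 hyper-methylated and 0 of both directions. With DMRs annotated to a gene by a UTR alone left out, 14 kinase DMGs were hypo-methylated, 5 hyper-methylated and 8 of both directions. The counts over all DMGs fell as well, from 281 hypo-methylated, 88 hyper-methylated and 116 of both directions. They were 209, 61 and 74 at a depth of at least 10, and 87, 18 and 1 at a difference of at least 20 percentage points. With the UTR annotations left out they were 229, 81 and 105. Around Glyma.U019400, 3 hypo-methylated and 3 hyper-methylated DMRs lay within 25 kb, and 16 and 14 within 100 kb. The share of all DMRs past the fold was 55.8% hypo-methylated and 44.2% hyper-methylated for a fold of 2, and 7.63% and 5.95% for a fold of 10. Of the 81 counts of the other kinase and receptor terms and of all DMGs under these alternatives, 29 moved by over 1.5 times. The depth gave narrow intervals, but 1 library per line cannot separate the lines from the libraries. No paired analysis was possible because each line had 1 library, and for the same reason no replicate could be left out.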

Other observations

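The near balance of opposite DMRs in Glyma.U019400 was set beside all 321 pairs of consecutive DMRs of opposite direction with at most 50 bp between them, its own pair included. Over these pairs, the absolute difference of the pooled levels had a median of 4.31 percentage points and reached 23.5. It was under 1 percentage point in 46 pairs (14.3%), and only 6 pairs had a smaller value than the 0.069 of Glyma.U019400. The hypo-methylated DMR had the lower coordinates in 155 of the 321 pairs, as it had in Glyma.U019400. These values were computed after those of Glyma.U019400 had been seen, and its DMRs were selected by their differences, so the rank is a description. It holds for pooled calls only. The unweighted mean of the DMR levels of Glyma.U019400 differed by -1.67 percentage points, and a rank by that measure was not computed.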
